A study of Mus musculus with 7 samples.

Results

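Cytosolic ribosomal proteins are the protein components of the ribosome, the particle that translates messenger RNA in the cytoplasm. The genes were chosen by symbol (Rpl, Rps, Rplp and Rpsa, without the kinases whose names begin with Rps6k) among the probe sets that carry exactly 1 gene symbol. They numbered 48 of the 18193 genes on the array, 26 of the large (60S) and 22 of the small (40S) subunit, and 46 of them passed a filter on low signal that left 12125 genes for testing. Each gene was represented by 1 probe set, the one with the highest mean signal, out of 104 probe sets that carried these symbols alone.

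The RNA came from macrophages of C57/Bl6 mice, sorted by GFP and by the macrophage surface protein that Adgre1 encodes, and was hybridised to Affymetrix mouse arrays. Normal brain gave 3 arrays, from mice 8 weeks old. Intracranial GL261, a mouse glioma line, gave 4 arrays from tumours grown for 21 days in mice transplanted with GFP bone marrow. Whether the mice without tumours had received that marrow too, how many animals an array represents and whether arrays came from separate animals is not given in the sources used here, so p-values measure only the spread between arrays, which may be technical. Each value is a MAS5 signal, a linear probe set intensity, given below as log2(signal + 6).

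The small subunit reads the messenger RNA and the large subunit forms the peptide bond. Most ribosomal proteins are present once per ribosome, and their messenger RNAs are among the most abundant and most evenly expressed of any cell. Many of these messages start with a stretch of pyrimidines through which the TOR pathway controls their translation, and many of the genes have promoters without a TATA box that bind ETS-family factors. Some members have a second, related gene with more restricted use, such as Rpl3l, Rpl39l and Rpl22l1.

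Promoters are shown for comparison from bright 60S genes (Rpl19, Rpl38), bright 40S genes (Rps18, Rps15, Rps7) and the paralogs Rpl39l and Rpl22l1. Any link between promoter sequence and the signals of the members was not tested. Each runs 5′ to 3′ from 100 bases before to 10 bases after an annotated start in RefSeq (GRCm38.p6). The ETS-type motif CCGGAAG, or its reverse complement, is in capitals.
Rpl19 (chr11:98026610-98026719, + strand): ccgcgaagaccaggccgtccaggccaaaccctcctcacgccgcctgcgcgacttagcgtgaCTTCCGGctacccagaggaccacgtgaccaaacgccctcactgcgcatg
Rpl38 (chr11:114668480-114668589, + strand): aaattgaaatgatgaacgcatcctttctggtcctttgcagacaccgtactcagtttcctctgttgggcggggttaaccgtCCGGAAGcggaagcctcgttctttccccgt
Rps18 (chr17:33955656-33955765, - strand): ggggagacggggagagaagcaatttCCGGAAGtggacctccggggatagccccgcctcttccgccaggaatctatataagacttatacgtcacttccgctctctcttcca
Rps15 (chr10:80292331-80292440, + strand): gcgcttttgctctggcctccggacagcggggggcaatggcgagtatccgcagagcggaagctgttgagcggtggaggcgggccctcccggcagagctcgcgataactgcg
Rps7 (chr12:28635944-28636053, - strand): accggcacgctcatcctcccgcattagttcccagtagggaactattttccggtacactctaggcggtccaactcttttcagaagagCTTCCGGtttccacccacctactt
Rpl39l (chr16:10170128-10170237, + strand): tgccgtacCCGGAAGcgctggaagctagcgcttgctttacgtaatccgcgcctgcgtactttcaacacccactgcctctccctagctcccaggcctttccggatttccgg
Rpl22l1 (chr3:28805408-28805517, + strand): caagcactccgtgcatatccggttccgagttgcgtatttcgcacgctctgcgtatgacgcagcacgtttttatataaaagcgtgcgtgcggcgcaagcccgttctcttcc

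RefSeq promoters of 300 bases, from 250 before to 50 after the start, were found for 42 of the 48 members. CCGGAAG on either strand was in a promoter of 20 of them (47.6%), against 9.93% of 27025 genes. TATAAA on either strand was in 6 (14.3%), against 15.7% of all genes. A polypyrimidine run of at least 10 bases on the coding strand within 20 bases of the start was in 14 (33.3%), against 8.61% of all genes. Of the promoters printed, Rps15 and Rpl22l1 did not have CCGGAAG in the 110 bases shown. In other members, such as Rpl27a, Rpl35 and Rps2, the motif lay only outside that stretch. The promoters printed are therefore no measure of how common it is there among the members. Rpl19 has another annotated start, not printed, whose 300 bases lack CCGGAAG on either strand. These counts describe the letters of the promoters and say nothing about factors bound in these cells.

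No ribosomal protein gene was called changed between GL261 and normal brain. At an adjusted p under 0.05 by limma, 0 of the 46 tested members were called (3 at an unadjusted p under 0.05), while 10.1% of all tested genes were called. The adjusted p-values of members ran from 0.164 to 0.989. The GL261 mean was lower for 40 members and higher for 6, with a median log2 fold change of -0.28 against 0.04 over all tested genes. Among the 6 was Rpl39l, which passed the filter on low signal only through GL261 replicate 2. The groups did not overlap for 2 members, against 23.4% of all genes. By subunit, the median was -0.23 for the 25 tested 60S genes, of which 21 had a lower mean in GL261, and -0.34 for the 21 tested 40S genes, of which 19 did.

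**Figure D1:**
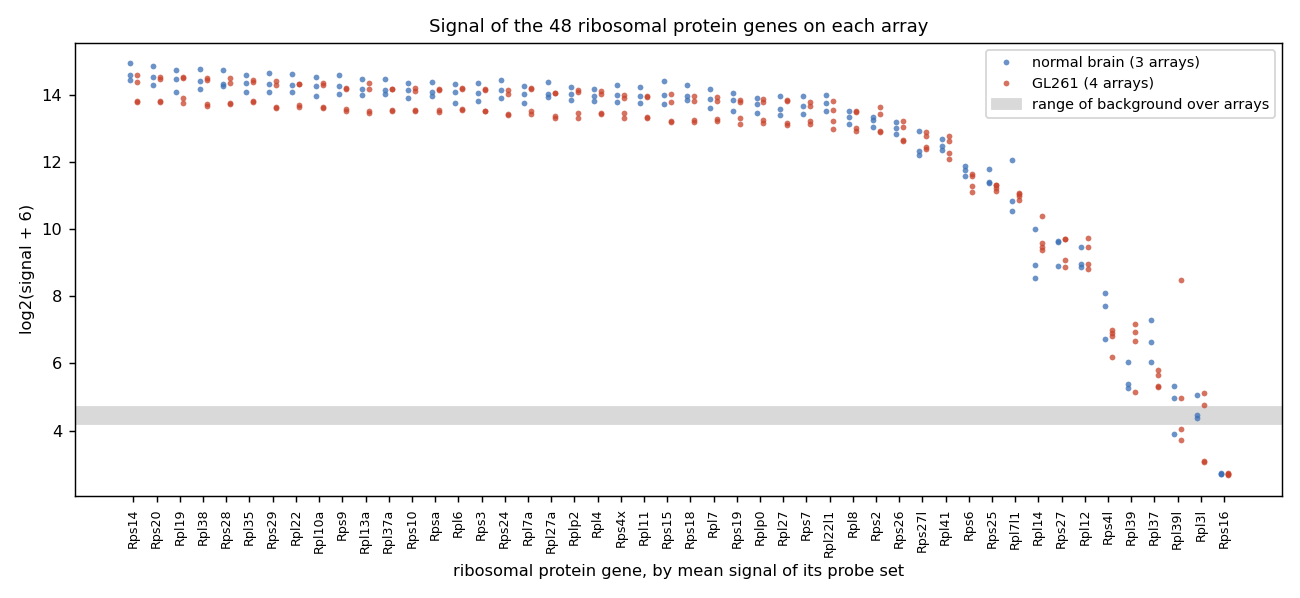
Signal of each of the 48 ribosomal protein genes as log2(signal + 6) on the 3 normal brain arrays (blue) and the 4 GL261 arrays (red), ordered by the mean of the probe set. The grey band is the range of the background over arrays, 4.19 to 4.70. For the brightest genes the GL261 points fall in pairs, one below and one among the normal brain points.

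Members with bright probe sets shared a pattern across arrays that did not follow the groups. For 33 members the mean log2 signal was above 13 (13.22 to 14.37). In each of these 33, GL261 replicates 1 and 2 were the lowest of all 7 arrays. In 31 of them GL261 replicates 3 and 4 both stood above normal brain replicate 1, and in 31 normal brain replicate 3 was the highest array. The groups overlapped in all 33.

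Relative to each gene's mean over the 7 arrays, the median of these 33 genes was -0.05, 0.16 and 0.45 in normal brain replicates 1 to 3. In GL261 replicates 1 to 4 it was -0.45, -0.49, 0.16 and 0.21. The genes kept close to one another within an array, with an SD over the 33 genes of 0.0427 to 0.108 on the log2 scale. For 258 other genes with a mean above 13, most of them (243) at 13 to 14, that SD was 0.134 to 0.190. The bright 40S and 60S members moved alike, at -0.48 and -0.41 in GL261 replicate 1 and 0.50 and 0.44 in normal brain replicate 3.

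**Figure D2:**
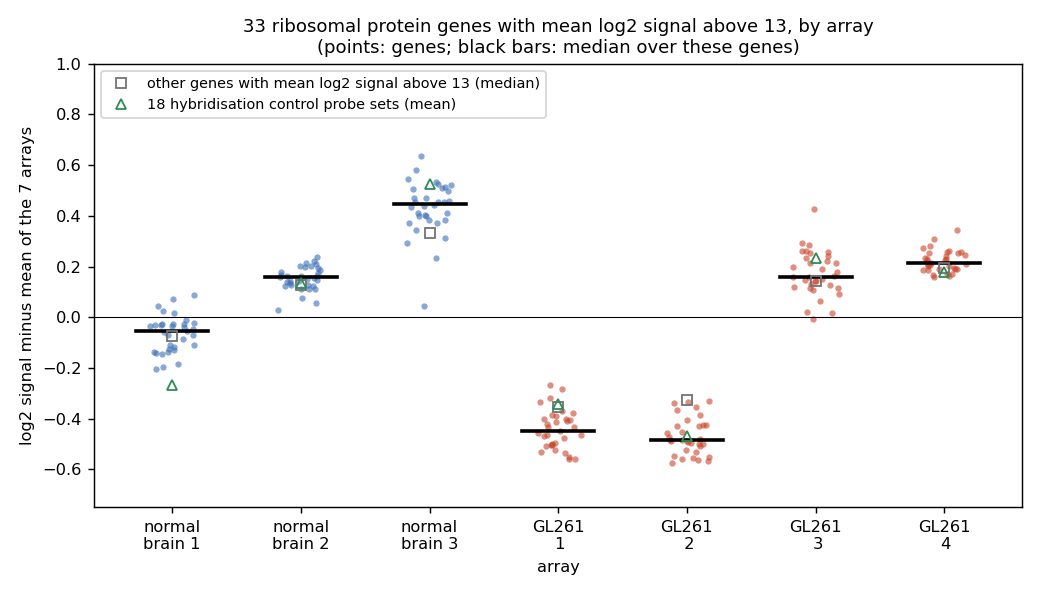
Log2 signal minus the gene's mean over the 7 arrays for the 33 ribosomal protein genes with a mean above 13 (points, with black bars at their median), by array. Open squares are the median of 258 other genes with a mean above 13 and open triangles the mean of 18 hybridisation control probe sets. GL261 replicates 1 and 2 are the lowest and normal brain replicate 3 the highest for all 3 quantities.

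Other bright probe sets and the hybridisation controls moved in the same arrays. The 258 other genes had medians of -0.08, 0.13 and 0.33 in normal brain and -0.35, -0.32, 0.14 and 0.20 in GL261, and 79.5% of them had GL261 replicates 1 and 2 as their lowest arrays, against 6.4% of all tested genes. The 18 probe sets of hybridisation controls, bacterial and phage transcripts that are not part of the sample RNA, averaged 12.40, 12.81 and 13.20 in normal brain and 12.33, 12.20, 12.90 and 12.85 in GL261 (log2). Their group difference was -0.23 (exact permutation test over 35 splits, two-sided p = 0.486). With the control level as a covariate, a setting added after the data were seen, the median log2 fold change of the members was -0.11. The median log2 fold change of non-member genes ran from 0.11 at mean signals of 9 to 11 to -0.20 at 13 to 14 and -0.29 above 14. In the same upper ranges the members' medians were -0.28 (21 genes) and -0.36 (12 genes).

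The size of the members' shift depended on the scaling and on single arrays. After quantile normalization, which gives all arrays the same distribution of signals, the median was -0.0043, with 24 members lower and 22 higher, and 0 of 46 called (7 at an unadjusted p under 0.05) by limma, while 12.2% of all genes were called, 7.05% higher and 5.18% lower. By construction this scaling also removes a shift shared by the brightest genes, and members made up 11.3% of all tested genes above 13. As deposited, the median was -0.41 when normal brain replicate 1 was left out and -0.18 when either normal brain replicate 3 or GL261 replicate 1 was. It was -0.31 when normal brain replicate 1 and GL261 replicate 2 were both left out. A fit with the replicate number as a block called 23 of 46 members lower, with 4.15% of all genes called lower and 4.13% higher (8.28% in all), but the numbers were not shown to pair the arrays.

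As a share of the signal summed over all genes, the members took 2.96%, 3.27% and 3.79% in normal brain replicates 1 to 3. In GL261 replicates 1 to 4 they took 2.34%, 2.34%, 3.27% and 3.34%. The means were 3.34% ± 0.422 (SD, n = 3) and 2.82% ± 0.557 (SD, n = 4), and the ranges overlapped. The difference of the means was -0.52 percentage points, and -0.29 without normal brain replicate 3. In a sorted population, fewer cells of a type and less RNA per cell cannot be told apart in such a share.

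For the 33 bright members the log2 fold changes lay between -0.51 and 0.01, with standard errors of 0.184 to 0.232. Their 95% confidence intervals reached from -0.99 at the lowest (Rps15) to 0.43 at the highest (Rps2), so a decrease of up to about that size was within the error of these arrays. Of the 33 intervals 31 included 0. Those of Rps14 (-0.98 to -0.03) and Rps18 (-0.94 to -0.02) lay below it, and neither gene was called. The lowest value was that of Rps14, a protein of the 40S platform, with signals of 14.44, 14.59 and 14.95 in normal brain and 13.81, 13.82, 14.39 and 14.59 in GL261. Its means were 14.66 ± 0.26 (SD, n = 3) and 14.16 ± 0.40 (SD, n = 4), which differ by -0.51 (SE 0.22, adjusted p = 0.164). GL261 replicate 4 equalled normal brain replicate 2, so the groups overlapped.

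Rps15 and Rps18 encode proteins of the head of the small subunit. Rps15 was at 13.75, 14.01 and 14.41 in normal brain and 13.22, 13.21, 13.79 and 14.02 in GL261, a difference of -0.50 on the log2 scale (SE 0.23, adjusted p = 0.192). Rps18 was at 13.85, 13.96 and 14.29 in normal brain and 13.26, 13.19, 13.83 and 13.97 in GL261, a difference of -0.48 on the log2 scale (SE 0.21, adjusted p = 0.178). In both genes replicate 4 of GL261 lay inside the normal brain range.

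After quantile normalization these 3 genes had the smallest p-values among the members and were still not called. Rps18 was then at 13.92, 13.81 and 13.87 in normal brain and 13.64, 13.58, 13.67 and 13.78 in GL261, a difference of -0.20 on the log2 scale (SE 0.060, adjusted p = 0.0512). Rps15 gave -0.22 (adjusted p = 0.0595) and Rps14 gave -0.13 (adjusted p = 0.0867). On that scale Rpl6, a 60S protein, lay on the other side, at 13.83 to 13.94 in normal brain and 13.99 to 14.06 in GL261, a log2 fold change of 0.13 (adjusted p = 0.115). Other probe sets of Rps18 with strong signal gave as deposited -0.17 and -0.20, and that of Rps14 gave -0.27, closer to the median of the members, while that of Rps15 gave -0.53, farther from it.

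**Figure D3:**
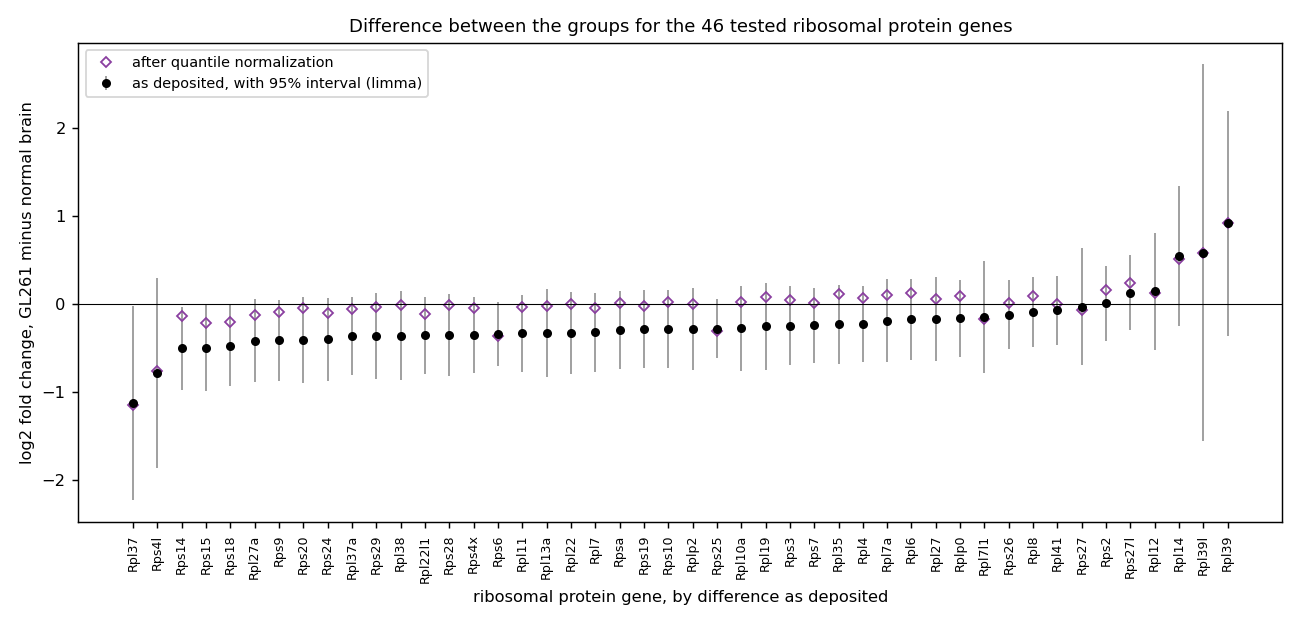
Log2 fold change (GL261 minus normal brain) of the 46 tested ribosomal protein genes as deposited, with 95% confidence intervals from limma (black), and after quantile normalization (open diamonds). As deposited the bright members lie between -0.51 and 0.01, and after quantile normalization between -0.22 and 0.16, spread around a median of -0.0077.

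The ribosomal stalk, which recruits the translational GTPases, is represented by Rplp0 and Rplp2. Rplp0 was at 13.46, 13.74 and 13.90 in normal brain and 13.27, 13.18, 13.89 and 13.80 in GL261, a log2 fold change of -0.16 (95% confidence interval -0.60 to 0.27). Rplp2 was at 13.85, 14.02 and 14.25 against 13.48, 13.32, 14.08 and 14.16, a log2 fold change of -0.28 (95% confidence interval -0.75 to 0.19). Both showed the order of arrays of the other bright members.

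Rpsa, a 40S protein also known as the laminin receptor precursor, was at 13.96, 14.08 and 14.38 in normal brain and 13.55, 13.49, 14.15 and 14.18 in GL261 (log2 fold change -0.30, adjusted p = 0.390). Rps20 and Rpl19, after Rps14 the members with the highest probe signals, had log2 fold changes of -0.41 (adjusted p = 0.271) and -0.25 (adjusted p = 0.518). Rps2, a 40S protein at the entry of the messenger RNA channel, was the bright member with the highest difference, 0.01 (adjusted p = 0.989). Its normal brain values were 13.04, 13.35 and 13.27, inside the GL261 range of 12.89 to 13.65.

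Rps6, the 40S protein that S6 kinases phosphorylate, did not show the array pattern of the bright members. Its values were 11.89, 11.78 and 11.58 in normal brain and 11.11, 11.64, 11.29 and 11.58 in GL261, a difference of -0.34 on the log2 scale (SE 0.17, adjusted p = 0.220). Here GL261 replicate 2 was the highest GL261 array and normal brain replicate 3 the lowest normal brain array. A second Rps6 probe set with weak signal gave 4.97, 6.16 and 3.53 in normal brain and 8.26, 6.29, 5.89 and 7.96 in GL261, the opposite direction (log2 fold change 2.22, adjusted p = 0.123 with every probe set tested by itself). Another 9 probe sets that name Rps6 together with other genes were not used for it.

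Among the paralogs, Rpl22l1, a counterpart of Rpl22, was like its parent gene one of the 33 bright members. Rpl22l1 was at 13.53, 13.76 and 13.99 in normal brain and 13.24, 13, 13.55 and 13.83 in GL261 (log2 fold change -0.36, adjusted p = 0.284). Rpl22 was at 14.08, 14.30 and 14.62 against 13.70, 13.66, 14.34 and 14.34 (log2 fold change -0.33, adjusted p = 0.360). Each had its lowest values in GL261 replicates 1 and 2, as all 33 bright members did, so this was not particular to the pair.

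Rps27l, a p53-responsive relative of Rps27, was one of the 6 members with a higher mean in GL261. Its values were 12.22, 12.32 and 12.92 in normal brain and 12.38, 12.44, 12.89 and 12.77 in GL261 (log2 fold change 0.13, adjusted p = 0.715), and its mean turned lower, to -0.0038, without normal brain replicate 1. The other probe sets of Rps27l, with mean signals of 12.37 and 11.69, gave log2 fold changes of -0.07 and -0.13, so the direction depended on the probe set. Rps27 itself was at 8.90 to 9.64 in normal brain and 8.89 to 9.72 in GL261 (log2 fold change -0.03, adjusted p = 0.964). Its direction changed with single arrays, from -0.27 to 0.12. The Rps27 probe set averaged 9.36, against a median of 13.77 over the members. Another probe set that names Rps27 carried several symbols and was not used. Signals of different probe sets do not rank the levels of Rps27 and Rps27l.

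The Rpl7 relative Rpl7l1 was at 10.54, 12.07 and 10.83 in normal brain and 10.88 to 11.09 in GL261 (log2 fold change -0.15, adjusted p = 0.793). The normal brain value of 12.07, in replicate 2, set its mean, and without that array the log2 fold change was 0.31. Both other probe sets of Rpl7l1 were higher in GL261, by 0.59 and 1.03, and were not called. Rpl7 was at 13.63, 13.89 and 14.17 in normal brain and 13.30, 13.23, 13.84 and 13.94 in GL261 (log2 fold change -0.32, adjusted p = 0.356).

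Rps4x, the X-linked 40S gene, was at 13.80, 13.99 and 14.30 in normal brain and 13.46, 13.33, 13.92 and 14 in GL261 (log2 fold change -0.35, adjusted p = 0.285). Its relative Rps4l gave 8.11, 6.74 and 7.70 in normal brain and 6.20, 6.91, 7 and 6.82 in GL261 (log2 fold change -0.79, SE 0.50, adjusted p = 0.346). Normal brain replicate 2 lay inside the GL261 range of Rps4l.

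Rpl39l, best known from testis, was at or near background on most arrays, at 5.32, 4.96 and 3.90 in normal brain and 4.06, 4.97 and 3.73 in GL261 replicates 1, 3 and 4. In GL261 replicate 2 it was at 8.49. The log2 fold change of 0.59 (adjusted p = 0.746) rested on that array and was -0.47 without it. The normal brain mean of Rpl39l was 4.73, under the filter level of 4.93, and the gene passed the filter only through GL261 replicate 2. Its place among the 6 members with a higher mean in GL261 is therefore no support for a difference. The parent gene Rpl39 was represented by a weak probe set, at 6.04, 5.27 and 5.38 in normal brain and 6.67, 6.93, 7.18 and 5.15 in GL261 (log2 fold change 0.92, adjusted p = 0.350). The groups overlapped through GL261 replicate 4.

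The striated muscle gene Rpl3l and Rps16 did not pass the filter on low signal. Rpl3l was at 3.06 to 5.12 and above background on 3 of the 7 arrays, and Rps16 was below background on all 7, at 2.67 to 2.72. Rps16 encodes a core 40S protein, and another 2 probe sets that name Rps16 carried several symbols. Such probe sets existed for 15 of the 48 members.

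The members without overlap between the groups were Rpl37 and Rps25. The Rpl37 probe set, also weak, was at 7.31, 6.03 and 6.64 in normal brain and 5.66, 5.34, 5.31 and 5.80 in GL261 (log2 fold change -1.13, SE 0.51, adjusted p = 0.181). Rps25, a 40S protein known for its part in internal initiation, was at 11.80, 11.42 and 11.39 in normal brain and 11.33, 11.22, 11.32 and 11.15 in GL261 (log2 fold change -0.28, SE 0.15, adjusted p = 0.271). Neither was called.

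Across all 99 tested probe sets of the members, 1 was called, against 5.45% of all probe sets (2.98% higher and 2.47% lower). It was a second Rpl7 probe set, with 12.38, 12.88 and 13.15 in normal brain and 11.75, 11.41, 11.24 and 12.45 in GL261 (log2 fold change -1.09, SE 0.28, adjusted p = 0.0437). GL261 replicate 4 overlapped with normal brain, and the other pair of Rpl7 probe sets gave -0.26 and -0.32. Of the 67 member probe sets with a mean above 12, 65 had a lower GL261 mean (median -0.29), and of the 32 weaker ones 19 did. In Rps24, another 40S gene, strong and weak probe sets ran from -0.45 to 1.19, and in Rpl35, a 60S gene, from -0.25 to 1.07. Ribosomal protein genes have many near-identical processed copies in the genome, and 16 of the 48 chosen probe sets carry a suffix (_x_at or _s_at) that marks probes shared with other transcripts, so their signals may hold other transcripts too.

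**Figure D4:**
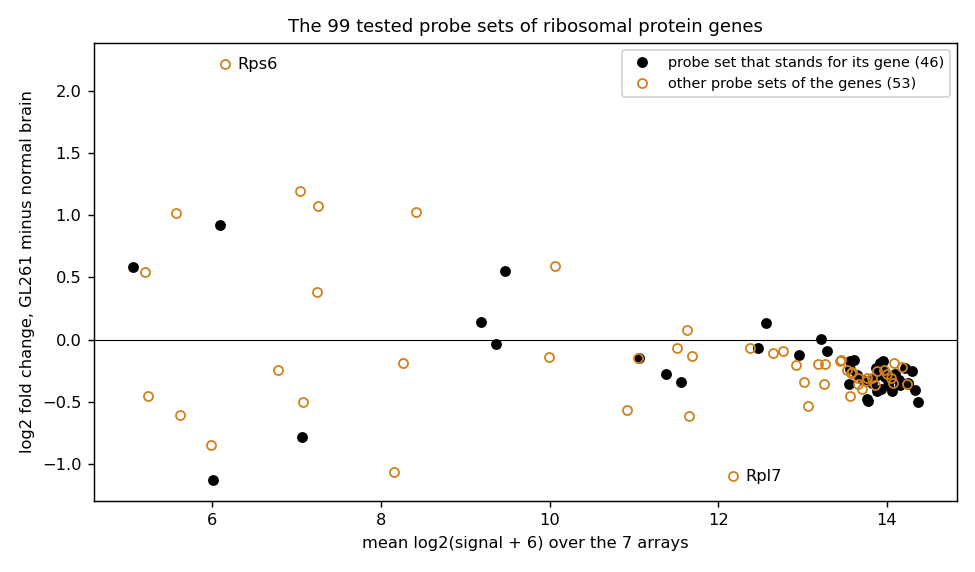
Log2 fold change (GL261 minus normal brain) against mean log2(signal + 6) for the 99 tested probe sets of ribosomal protein genes. Filled points are the probe sets that stand for their gene (46) and open points the others (53). Of the 67 probe sets above 12, 65 lie below 0, 1 of Rpl7 the lowest at -1.09, and weak probe sets scatter on both sides of 0.

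Of 14 pan-macrophage genes 1 was called higher in GL261 (Mertk, 1.06, adjusted p = 0.0243) and 0 lower, with 7 means higher and 7 lower, a median of -0.02 (0.16 after quantile normalization) and sums of 112451 to 142088 in normal brain and 98199 to 140390 in GL261. The sorting marker Adgre1 was at 12.85 to 13.10 in normal brain and 12.54 to 12.71 in GL261, and Itgam had the weakest probe set of the list, with means of 6.98 and 7.86. Genes of other cells moved between the groups, and their part in the values of the ribosomal protein genes was not tested. Called lower in GL261 were 5 of 6 tested B cell, 6 of 7 neutrophil, 2 of 2 erythroid and 3 of 8 endothelial genes. Called higher were 3 of 9 T and NK cell, 3 of 8 pericyte and fibroblast and 7 of 17 cell cycle genes. Over all tested genes, 4.2% were called lower and 5.92% higher. The summed B cell signal was 6628 to 8427 in normal brain and 2380 to 3240 in GL261, that of neutrophil genes 39749 to 51090 and 16541 to 22952, and that of T and NK cell genes 5307 to 6239 and 7341 to 13388. Summed cell cycle signal was 13350 to 14939 in normal brain and 20678 to 31951 in GL261. Summed erythroid signal was 9422 to 16069 in normal brain and 84.9 to 4447 in GL261, with Hba-a1 at background on all arrays. For endothelial genes the sums were 2447 to 3331 and 725 to 1998, and for pericyte and fibroblast genes 683 to 1865 and 2748 to 4503. Of 6 oligodendrocyte lineage genes 3 were called higher and 1 lower, with sums of 3548 to 5749 and 2287 to 4025. Of 5 tested neuron genes 1 was called higher, Tubb3, and of 6 astrocyte genes 0 were called. No other marker of these lists was at background on all arrays. Of the genes called higher, Olig2, Sox10 and Tubb3 had normal brain means of 3.61, 3.57 and 3.71, under the filter level of 4.93. Of those called lower, Mpo, Alas2, Tek and Tie1 had GL261 means of 4.13, 4.23, 4.78 and 3.93, also under it. Each passed the filter only through the group where it was high, so its place in these counts is no support for a difference. For Gapdh, signal at the 3' end relative to the 5' end, which rises with RNA degradation, averaged 2.41 ± 0.0243 over the normal brain arrays (SD, n = 3) and 1.75 ± 0.127 over the GL261 arrays (SD, n = 4) (two-sided exact permutation p = 0.0286, the smallest that 35 splits allow), without overlap, so its part in the members' values cannot be told apart from that of the groups. The same ratio for actin averaged 1.57 ± 0.116 (SD, n = 3) and 1.42 ± 0.0715 (SD, n = 4), with overlapping groups (exact permutation p = 0.143).

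Other genes of translation, and RNA polymerase II subunit genes for comparison, were read from the same fit. Of 157 tested genes in 7 lists, 9 were called higher and 2 lower in GL261, which is 5.73% and 1.27%, against 5.92% and 4.2% of all tested genes. The RNA polymerase II list held 10 of these 157 genes and 1 of the 9 called higher. Fau, whose product is processed into a 40S protein, had a log2 fold change of -0.29 (adjusted p = 0.454), and the elongation factor gene Eef1a1 had -0.33 (adjusted p = 0.378). Of the 6 tested ribosome-associated and ubiquitin-fusion genes 0 were called (0 at an unadjusted p under 0.05), with Nsa2, a 60S assembly factor, at -0.31 (adjusted p = 0.241) and a list median of -0.18 that was 0.01 after quantile normalization.

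Of the 34 initiation factor genes 3 rose and 0 fell (median 0.09). Eif5b, the GTPase that joins the subunits, rose by 1.07 (SE 0.23, adjusted p = 0.0138), with means of 9.48 ± 0.35 in normal brain (SD, n = 3) and 10.54 ± 0.25 in GL261 (SD, n = 4). Eif6, which binds the free 60S subunit, rose by 0.78 (SE 0.17, adjusted p = 0.0148), and Eif1a, a factor of start codon selection, by 0.64 (SE 0.14, adjusted p = 0.0160). For all 3 the groups did not overlap, and each lost its call in 1 of 7 fits without 1 array. Calls were also lost in other settings, in 6 of 20 fits in all for Eif1a, 5 for Eif6 and 3 for Eif5b. Eif1a was at 0.33 (adjusted p = 0.220) without probe sets that end in _x_at or _s_at. Of the 14 elongation and termination genes 1 was called higher (median -0.07, or 0.08 after quantile normalization). This was the release factor gene Gspt2, which was under the background in normal brain, at 3.16 to 4.00, and at 5.61 to 6.18 in GL261. It passed the filter on low signal (4.93) only through its GL261 arrays, so its place among the 9 genes called higher is no support for a difference.

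Of the 65 genes of ribosome biogenesis 3 rose and 1 fell, and 53 had a higher mean in GL261 (median 0.30). Heatr1, a factor of 40S precursor processing, rose by 0.70 (SE 0.16, adjusted p = 0.0188), Ebna1bp2, a 60S assembly factor, by 1.01 (SE 0.28, adjusted p = 0.0418) and Nip7 by 1.09 (SE 0.31, adjusted p = 0.0471). Tcof1, whose product treacle supports transcription of ribosomal RNA, fell by 1.49 (SE 0.20, adjusted p = 0.00146), with means of 11.20 ± 0.18 in normal brain (SD, n = 3) and 9.71 ± 0.30 in GL261 (SD, n = 4). All 4 calls depended on the choice of probe set. Tcof1 was at -0.12 (adjusted p = 0.832) without probe sets that end in _x_at or _s_at and at -0.68 (adjusted p = 0.0963) with the mean of its probe sets, though it kept its call in all 7 fits without 1 array. With the mean of probe sets Heatr1 was at 0.23 (adjusted p = 0.641), Ebna1bp2 at 0.32 (adjusted p = 0.619) and Nip7 at 0.34 (adjusted p = 0.388). The calls of Ebna1bp2 and Nip7 were lost in 14 of 20 fits, 6 of them without 1 array, and that of Heatr1 in 7, 3 of them without 1 array.

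Of 14 genes of RNA polymerase I, which transcribes ribosomal RNA, 1 rose, the subunit gene Twistnb (0.65, SE 0.17, adjusted p = 0.0348), whose call was lost in 12 of 20 fits, 4 of them without 1 array. With the mean of probe sets it was at 0.15 (adjusted p = 0.712). The list median was 0.01, and -0.00032 with arrays centred on their medians. Of 14 tested genes of the S6 kinases and the TOR pathway 1 fell, Rps6ka5, a nuclear kinase of the family, by 0.93 (SE 0.21, adjusted p = 0.0178), with its call lost in 5 of 20 fits, 2 of them without 1 array. With the mean of probe sets it was at -0.29 (adjusted p = 0.564). Mtor was at 0.35 (adjusted p = 0.425). Of 10 RNA polymerase II subunit genes, listed for comparison, Polr2d rose by 1.59 (SE 0.29, adjusted p = 0.00744) and the median was 0.23.

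**Figure D5:**
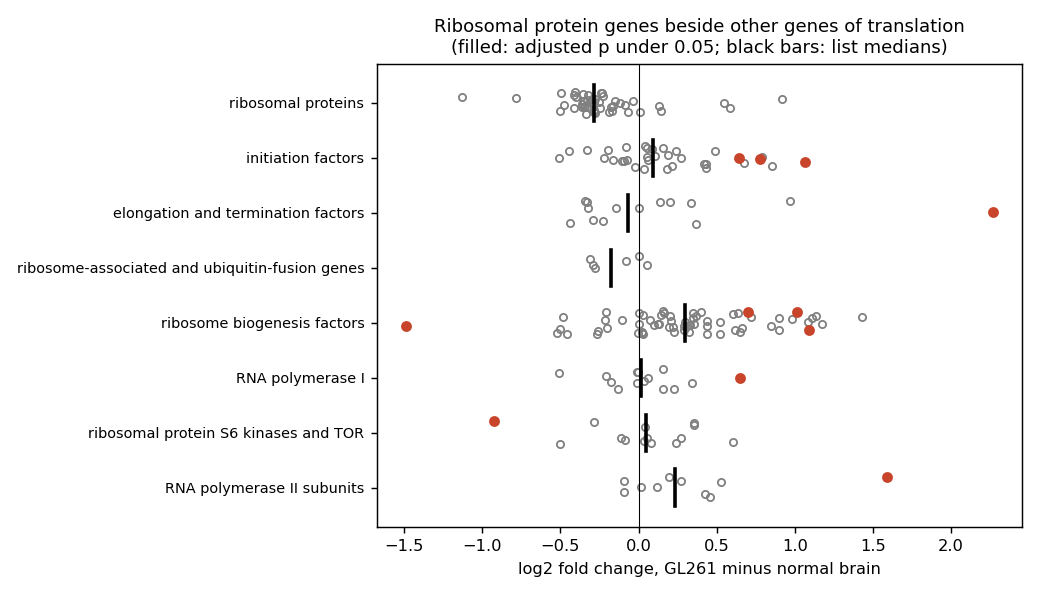
Log2 fold change (GL261 minus normal brain) of tested genes of the ribosomal proteins and of 7 lists of translation and transcription genes. Filled points passed an adjusted p under 0.05 by limma and black bars are list medians. The ribosomal protein genes have no filled point and a median of -0.28, and the biogenesis factors a median of 0.30.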

How the data were processed

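Expression in macrophages from normal brain (3 arrays) and GL261 tumours (4 arrays) was deposited as linear MAS5 signal intensities, per the submitters' processing notes, which give no version. On every array the deposited signals averaged 500.0 once 2% were trimmed from each end. Of 45101 probe sets, 34945 had 1 gene symbol, 932 several and 9160 none, and 64 were controls. All 48 member symbols were found in RefSeq (GRCm38.p6). Median signal per array was 49.5 to 73.0. The small number of arrays limits the precision.

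The analysis used log2(signal + 6), with the pseudocount taken from the 20th percentile of the signals, and 1 probe set per gene (highest mean). Genes above the 40th percentile of probe set means (4.93) were tested with limma 3.58.1 in R 4.3.3 with moderated variances that follow the mean, two-sided, with Benjamini-Hochberg adjustment over all 12125. Fold changes of weak genes are understated. Background was the 95th percentile of 27 unspiked control probe sets on each array. The procedure was tested on simulated data, with noise drawn separately for each gene and array. Such data lack the shift that bright genes shared across arrays here, so the simulation does not bear on it. Figures were drawn with matplotlib 3.10.9 in Python 3.11.15.

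Named were the paralogs and their parent genes, the stalk genes, Rpsa, Rps6, the 3 members with the highest and the lowest signal and, per list, up to 3 called genes in the main direction and 1 in the other, or those with the smallest p. Rps15, Rps18, Rps2, Rpl6, Rps25, Rpl37, Rps24, Rpl35, Eef1a1, Mtor, Mertk, Itgam and the probe sets singled out were chosen after their values were seen. The members and lists were chosen with earlier results of these data known. Alternatives covered pseudocounts of 1 and 50, filters (none, 60th percentile), scaling (quantile, median), blocking on the replicate number, other variance models, array weights, other choices of probe set and leaving out arrays.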

Additional observations from a re-analysis of the deposited data

How the results depend on the processing

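The count of called members was 0 in the main setting and in 19 of 21 alternatives. With every probe set tested it was 1. With the replicate number as a block 23 of 46 were called lower, while 8.28% of all genes were called. The numbers are not shown to pair the arrays, since deviations of same-numbered arrays correlated at 0.08, -0.01 and 0.03 and 2 of 3 normal brain arrays correlated best with their own number. Genes of the 7 lists called higher, the RNA polymerase II list included, numbered 4 under median centring and 3 with the replicate block. They numbered 2 with variances that do not follow the signal, 1 with the mean of probe sets and 2 to 12 without 1 array. Those called lower numbered 4 after quantile normalization, 7 with the block, 1 with the other variance model, 1 with the mean of probe sets, 1 without _x_at and _s_at probe sets, 4 without normal brain replicate 1 and GL261 replicate 2, and 1 to 4 without 1 array. The Gapdh ratio difference ranged from -0.71 to -0.62 without 1 array, where no split can reach the threshold. Of 20 members followed through the alternatives, 363 of 395 values kept direction and call, 11 were called (all with the block) and 21 changed direction. Quantile normalization gave Rplp0 0.091, Rplp2 0.0042, Rpsa 0.0092 and Rpl19 0.086. The block gave Rps27 0.057. The mean of probe sets gave Rpl7l1 0.49, Rps27l -0.024, Rpsa 0.12 and Rps6 0.94. Without normal brain replicate 1 and GL261 replicate 2, Rpl39l was at -0.18 and Rps27 at 0.23. With the hybridisation controls as a covariate, Rpl39l was at -0.076, Rps27 at 0.013 and Rplp0 at 0.023. Without 1 array, Rps27 ranged from -0.27 to 0.12, Rps27l from -0.0038 to 0.35, Rpl7l1 from -0.45 to 0.31 and Rpl39l from -0.47 to 1.12. The causes were not tested.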

Other observations

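The middle probe set of the 18S ribosomal RNA control, which reads the RNA of the small subunit, was at 13.65, 14.05 and 14.33 in normal brain replicates 1 to 3 and at 13.17, 13.39, 14.19 and 14.27 in GL261 replicates 1 to 4 (log2). As for the bright ribosomal protein genes, GL261 replicates 1 and 2 were the lowest arrays and normal brain replicate 3 the highest. The labels do not say that ribosomal RNA was labelled on purpose, and the group difference was not tested.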
